A study of Homo sapiens with 6 samples.

Results

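Aminoacyl tRNA synthetases are the enzymes that load each tRNA with its amino acid, and 36 of their genes are described here in RPMI-8402 cells, a line of T-cell acute lymphoblastic leukaemia. The genes were chosen by symbol, with earlier results of these data known. Of these, 20 encode cytosolic enzymes and 16, with symbols ending in 2, encode mitochondrial enzymes, out of 63677 genes in the count table. VARS stands under 7 gene IDs and VARS2 under 4, of which the ID with the highest total count was taken and the others held 0 counts. All 36 members passed the filter on low counts, among 15949 genes that did. The cells of both groups stably expressed Cas9 and were cultured in tetracycline-free serum. The control group of 3 libraries received DMSO, with the genotype given as control. The other 3 received doxycycline (DOX) for 72 hours, which induced guide RNAs against MYC and MYCN, with the genotype given as MYCN_knockout. The series title names both genes as knocked out and the treatment text names MYC alone. The libraries are named DMSO 11, 23 and 35 and DOX 12, 24 and 36 after their column headers. No label says that they are separate cultures, so the spread behind each p-value may be a technical one. Libraries with doxycycline but no guides were not analysed here, so drug and guides cannot be told apart.

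A synthetase recognises 1 amino acid, activates it with ATP and joins it to the matching tRNA, which the ribosome then reads. Cells keep a cytosolic set and a mitochondrial set, both encoded in the nucleus and both translated in the cytosol. Several cytosolic enzymes are held together in the multisynthetase complex. When charging fails, uncharged tRNA activates the kinase GCN2, which leads to translation of the transcription factor ATF4, and many cytosolic synthetase genes are known ATF4 targets. MYC family proteins are also known to promote genes of protein synthesis.

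Total counts ran from 28602145 to 29204148 per library. MYCN stood at 76.8, 109.5 and 86.9 CPM in DMSO 11, 23 and 35 and at 46.2, 50.05 and 53.7 CPM in DOX 12, 24 and 36, and MYC at 279, 201 and 256 against 206, 200.5 and 193 CPM (CPM, counts scaled to a common library size, as described under processing). MYC overlapped between the groups. Of 14 T-cell leukaemia marker genes, 13 passed the filter and CD1A did not. DESeq2 called PTCRA and LMO1 lower in DOX, and their part in the results was not tested. The summed level of the list was 2277 to 2519 CPM in DMSO and 2342 to 2353 CPM in DOX. This sum is carried by the abundant genes and does not show the spread of single markers. CD2 stood at 19.6, 5.35 and 6.96 CPM in DMSO 11, 23 and 35 and at 15.5, 14.7 and 13.5 CPM in DOX 12, 24 and 36. B-cell, myeloid and erythroid markers summed to at most 4.17, 1.53 and 0.0357 CPM in any library. DMSO 11 stood apart from the other controls in the synthetases: its root mean square log2 distance over the 36 members was 0.49 to DMSO 23 and 0.46 to DMSO 35, but 0.15 to 0.20 to the DOX libraries. DMSO 23 and DMSO 35 lay 0.12 apart, and the DOX libraries 0.08 to 0.10. These distances were not computed over all genes, but the effect of DMSO 11 was not limited to the members. With all libraries edgeR called 5 of 15949 genes at an adjusted p under 0.05. Without DMSO 11 it called 8109 of 16412 genes, or 49.4%. Fold changes are therefore also given without DMSO 11, for the members and for the genes named from other lists. That fit has DMSO 23 and DMSO 35 as its only controls. Since DMSO 11 was singled out on the members' values, p-values without it are description and no independent test. A lower level in a bulk library cannot be told apart from fewer cells making the transcript.

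Per kilobase of exon, the cytosolic genes were the more abundant class, with a median of 63.2 CPM per kilobase in DMSO and 45.7 in DOX, against 8.59 and 8.35 for the mitochondrial genes. AARS, for alanine, was the highest of all at 141 ± 45.4 CPM per kilobase in DMSO and 99.4 ± 3.23 in DOX (mean ± SD, n = 3 per group, as elsewhere). IARS, for isoleucine, followed at 104 ± 27.6 and 76.5 ± 0.644, and QARS, for glutamine, at 103 ± 7.998 and 95.3 ± 2.31. In DMSO the other 2 means lay within 1 SD of AARS. The lowest cytosolic gene was HARS, for histidine, at 7.58 ± 2.63 in DMSO. Among the mitochondrial genes IARS2 was highest at 50.9 ± 5.43 in DMSO, NARS2, for asparagine, came next at 26.1 ± 2.31, and YARS2, TARS2 and AARS2 lay between 11.1 and 12.3 with overlapping spreads. SARS2 was lowest at 0.919 ± 0.101, and 46.2% of its exon length is shared with other genes on the same strand in GENCODE 29, so its level is uncertain.

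**Figure D1:**
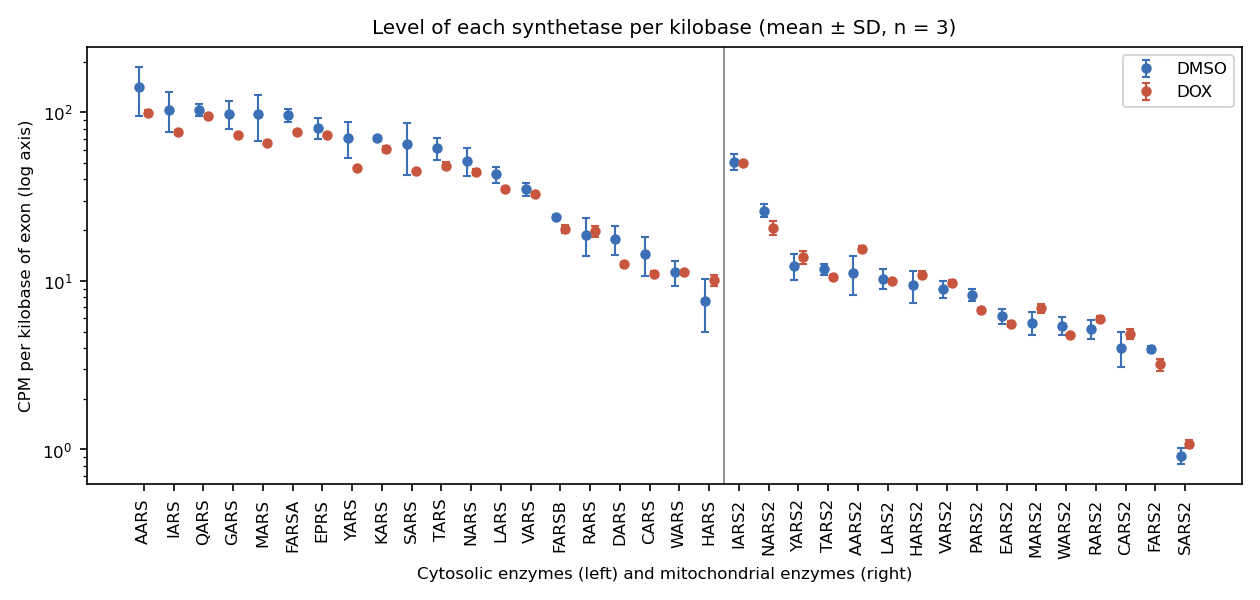
Level of each synthetase gene in CPM per kilobase of exon on a log axis, as mean ± SD over 3 DMSO (blue) and 3 DOX (red) libraries, with cytosolic enzymes left and mitochondrial enzymes right of the line. Cytosolic genes reach 141 (AARS in DMSO), while IARS2 is the highest mitochondrial gene at 50.9.

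In the comparison of DOX with DMSO the cytosolic genes leaned lower and the mitochondrial genes went both ways. The log2 fold change (DOX over DMSO) was below 0 in 17 of 20 cytosolic and in 8 of 16 mitochondrial genes, against 50.3% of all genes tested. Its median was -0.30 over the cytosolic genes, from -0.60 to 0.41, and 0.06 over the mitochondrial genes, from -0.34 to 0.48, beside a median of -0.0031 over all genes. EdgeR's quasi-likelihood test called 0 members in either class at an adjusted p of 0.05, where 0.0313% of all genes were called (0.0188% lower and 0.0125% higher, and the same shares by limma's voom, which also called 0 members). The edgeR adjusted p-values of the members ran from 0.101 to 0.982. At an unadjusted p under 0.05 it counted 12 cytosolic genes lower and 0 higher, and 3 mitochondrial genes lower and 1 higher, against 26% of all genes, 14.8% lower and 11.2% higher. DESeq2 called 4 cytosolic genes lower, YARS, DARS, FARSA and GARS, and no other member, beside 9.81% of the genes it tested, 6.44% lower and 3.37% higher. The groups were separate, with DOX lower, in 8 cytosolic and 4 mitochondrial genes and, with DOX higher, in 0 and 2, where 15.6% and 14.6% of all genes did so.

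**Figure D2:**
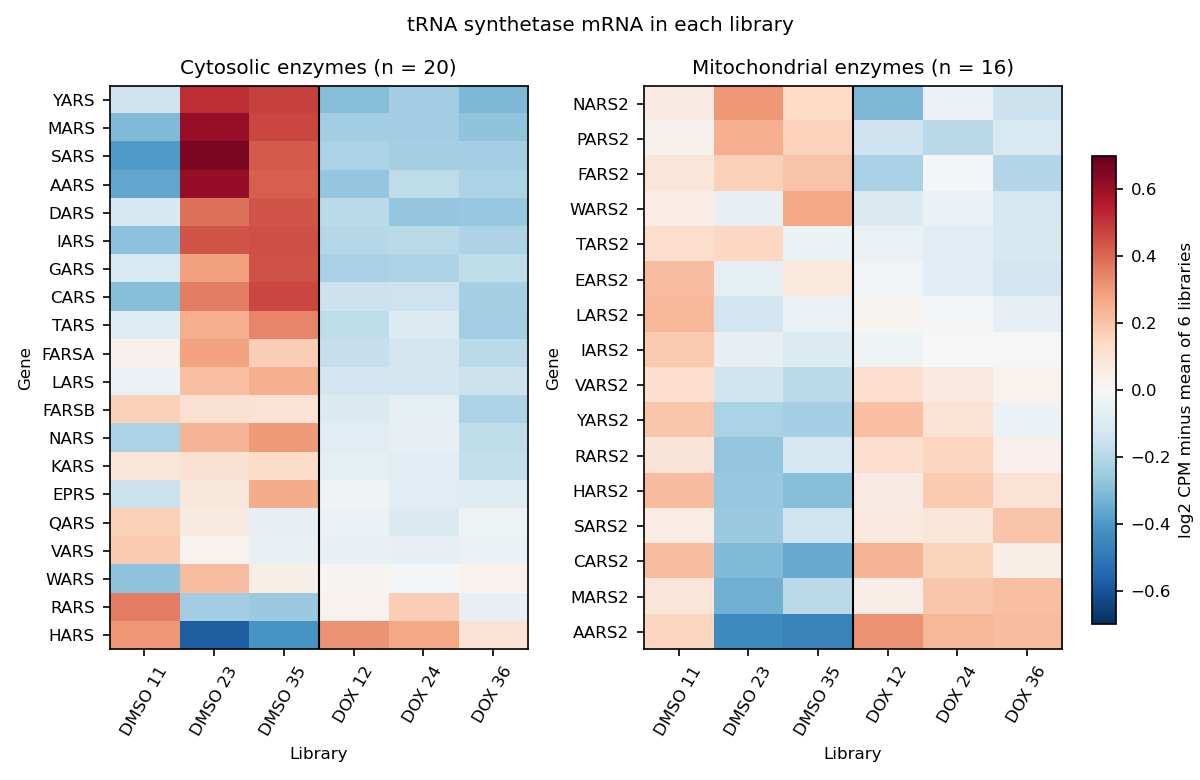
Log2 CPM of each member in each library minus its mean over the 6 libraries, red for higher and blue for lower, with the cytosolic genes on the left and the mitochondrial genes on the right, ordered by fold change. The median of the cytosolic genes is 0.25 in DMSO 23 and 0.28 in DMSO 35 but -0.11 in DMSO 11, near the DOX libraries at -0.19 to -0.11.

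The libraries differed by class. Each gene's log2 CPM was set against its own mean over the 6 libraries. The median of these differences over the cytosolic genes was -0.11 in DMSO 11, 0.25 in DMSO 23, 0.28 in DMSO 35 and -0.14, -0.11 and -0.19 in DOX 12, 24 and 36. DMSO 11 was the lowest DMSO library in 15 of 20 cytosolic genes. Over the mitochondrial genes the order turned: the median was 0.12 in DMSO 11, -0.14 in DMSO 23 and -0.11 in DMSO 35, with 0.03, 0.04 and -0.02 in the DOX libraries, and DMSO 11 was the highest DMSO library in 11 of 16. Across all genes tested it was the lowest DMSO library in 6985 and the highest in 6502. The DOX mean was lower than DMSO 11 by a median of 0.09 on the log2 scale over the cytosolic genes, and lower than the mean of DMSO 23 and DMSO 35 by 0.38. For the mitochondrial genes it was lower than DMSO 11 by 0.12 and higher than the other controls by 0.15.

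YARS, the tyrosine enzyme, had the lowest log2 fold change of all members. It stood at 422, 667 and 649 CPM in DMSO 11, 23 and 35 and at 379, 393 and 374 CPM in DOX 12, 24 and 36. Each DOX library was below each DMSO library, with DMSO 11 closest to them. The log2 fold change was -0.60 ± 0.17 (SE), with adjusted p-values of 0.101 by edgeR's quasi-likelihood test and 0.0145 by DESeq2. DARS, which charges aspartate and belongs to the multisynthetase complex, stood at 54.9, 77.4 and 80.6 CPM in DMSO and 52.3, 49.2 and 49.3 CPM in DOX. The groups did not overlap, although DMSO 11 and DOX 12 differed by little. The log2 fold change of DARS between the groups was -0.50 ± 0.14, with adjusted p-values of 0.101 by edgeR and 0.0279 by DESeq2. GARS serves both compartments, since 1 gene makes the cytosolic and the mitochondrial glycine enzyme. It stood at 325, 426 and 476 CPM in DMSO and 299, 301 and 309 CPM in DOX, again without overlap. Its log2 fold change was -0.43 ± 0.14, with adjusted p-values of 0.116 by edgeR and 0.0433 by DESeq2.

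The phenylalanine enzyme is built from the subunits FARSA and FARSB. FARSA, the alpha subunit, stood at 213, 254 and 235 CPM in DMSO and 186, 191 and 183 CPM in DOX. The log2 fold change of FARSA was -0.32 ± 0.09, with adjusted p-values of 0.101 by edgeR and 0.0280 by DESeq2. FARSB, the beta subunit, was even across the controls at 83.5, 80.0 and 79.8 CPM, and lower in DOX at 69.4, 71.1 and 64.1 CPM. Its log2 fold change was -0.25 ± 0.08, which neither edgeR (adjusted p = 0.115) nor DESeq2 (adjusted p = 0.0796) called. In FARSB, DMSO 11 was the highest control, so the difference was no smaller against that library (-0.29) than against DMSO 23 and DMSO 35 (-0.23). KARS, the lysine enzyme of both compartments, was likewise even in DMSO, at 282, 286 and 291 CPM, against 254, 251 and 236 CPM in DOX (-0.21 ± 0.08, DESeq2 adjusted p = 0.0868).

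TARS, LARS and MARS charge threonine, leucine and methionine, and edgeR gave them unadjusted p-values of 0.0192, 0.0223 and 0.0254 without a call by either tool. TARS stood at 292, 371 and 393 CPM in DMSO and 274, 290 and 264 CPM in DOX (log2 fold change -0.35 ± 0.12). LARS stood at 306, 364 and 374 CPM in DMSO and 287, 289 and 284 CPM in DOX (-0.28 ± 0.10). In both genes the groups did not overlap, with DMSO 11 just above the DOX libraries. MARS stood at 447, 844 and 766 CPM in DMSO and 468, 469 and 456 CPM in DOX (-0.56 ± 0.21). Here DMSO 11 lay below every DOX library, so the groups overlapped; 12.4% of the exon length of MARS lies opposite other genes, among them the stress gene DDIT3, in GENCODE 29, and whether the counting used strand is not given.

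The same split of the controls was wide in the abundant AARS and IARS. AARS stood at 405, 799 and 697 CPM in DMSO and 432, 461 and 448 CPM in DOX (-0.50 ± 0.22), and IARS at 534, 883 and 892 CPM in DMSO and 566, 571 and 561 CPM in DOX (-0.44 ± 0.18). In both, DMSO 11 was below all DOX libraries. SARS and CARS, for serine and cysteine, showed the same order of libraries, with log2 fold changes of -0.53 ± 0.23 and -0.39 ± 0.18. QARS differed from these: it stood at 524, 488 and 449 CPM in DMSO and 454, 436 and 456 CPM in DOX, with DMSO 11 the highest library and a log2 fold change of -0.12 ± 0.09. VARS, for valine, was at -0.11 ± 0.09, NARS, for asparagine, at -0.23 ± 0.14 and the glutamate and proline enzyme EPRS at -0.14 ± 0.12, and neither tool called any of them.

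**Figure D3:**
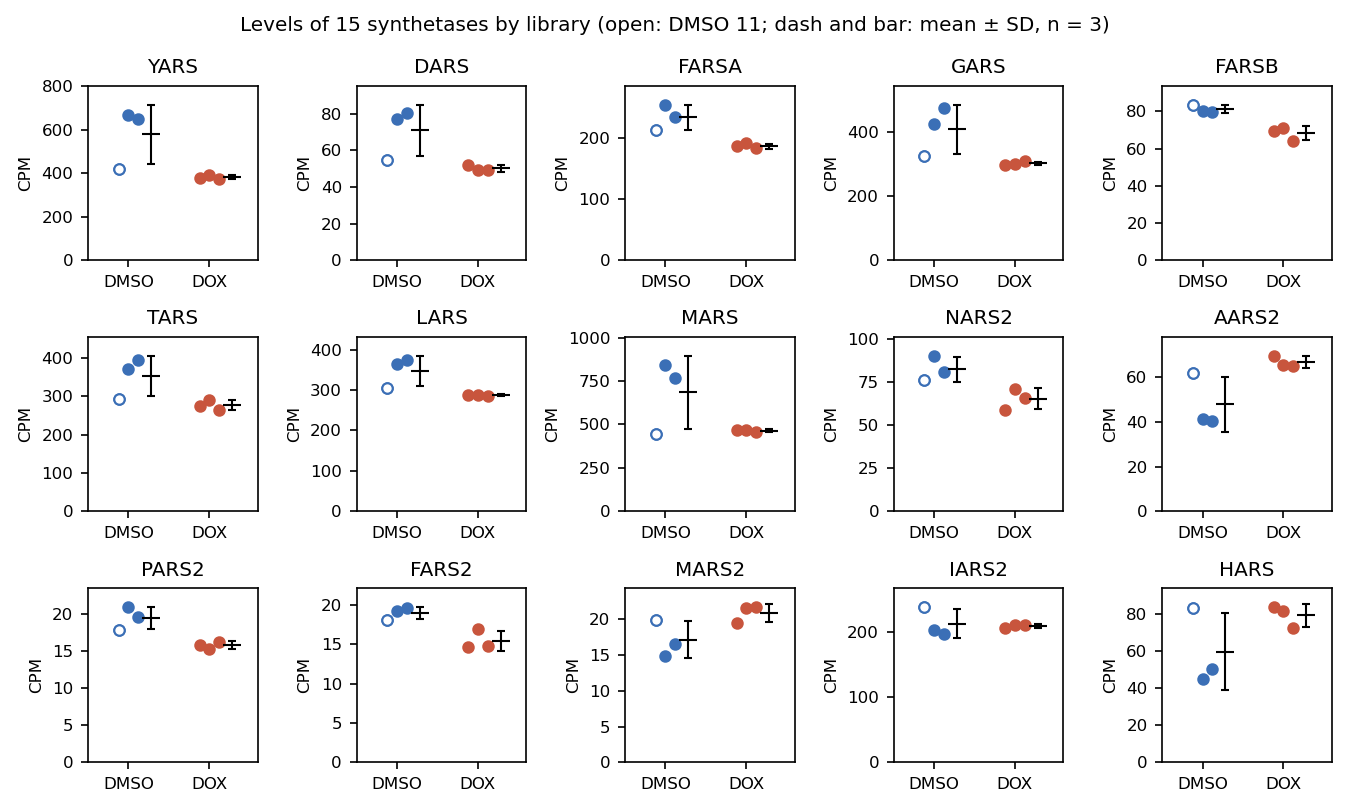
CPM of 15 members in each DMSO (blue, DMSO 11 open) and DOX (red) library on axes that start at 0, with mean ± SD (n = 3) beside the points. In YARS, DARS, FARSA and GARS the DOX libraries lie below all DMSO libraries, and in AARS2 above them; in MARS and HARS DMSO 11 lies among or next to the DOX libraries.

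The 3 cytosolic genes with a log2 fold change above 0 were HARS, RARS and WARS. HARS stood at 83.2, 45.0 and 50.5 CPM in DMSO and 83.7, 81.2 and 72.2 CPM in DOX, so that DMSO 11 lay within the DOX range and the other controls well below it (0.41 ± 0.21, edgeR adjusted p = 0.246). Of its exon length, 8.38% lies opposite other genes, HARS2 among them, so reads from that part may not be told apart if the counting ignored strand. RARS, for arginine, stood at 83.5, 55.1 and 54.5 CPM in DMSO and 66.3, 73.3 and 62.6 CPM in DOX (0.07 ± 0.17). Its sign changed to below 0 when DMSO 23 or DMSO 35 was left out. WARS, the tryptophan enzyme that interferon is known to induce, was at 0.0052 ± 0.12, with 58.7 to 82.8 CPM in DMSO and 70.9 to 72.6 CPM in DOX.

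Of the mitochondrial genes, AARS2, the alanine enzyme, had the highest log2 fold change. It stood at 62.1, 41.1 and 40.5 CPM in DMSO and 69.6, 65.6 and 64.9 CPM in DOX. Every DOX library was above every DMSO library, with DMSO 11 close to them, and the log2 fold change was 0.48 ± 0.16 (adjusted p = 0.127 by edgeR and 0.0666 by DESeq2). MARS2, for methionine, stood at 19.9, 14.9 and 16.5 CPM in DMSO and 19.4, 21.5 and 21.7 CPM in DOX, with DMSO 11 inside the DOX range (0.29 ± 0.13, edgeR adjusted p = 0.198). SARS2 was the other mitochondrial gene with all DOX libraries above all DMSO libraries, at 2.68 to 3.32 CPM in DMSO and 3.36 to 3.69 CPM in DOX (0.23 ± 0.16). CARS2, HARS2, RARS2, YARS2 and VARS2 had log2 fold changes from 0.13 to 0.27 with overlapping groups. HARS2 shares 11.7% of its exon length with genes of the opposite strand, HARS among them, and VARS2 shares 22% with GTF2H4 on the same strand.

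NARS2, PARS2 and FARS2, for asparagine, proline and phenylalanine, were the mitochondrial genes with the lowest values in DOX relative to DMSO. NARS2 stood at 76.1, 90.3 and 80.7 CPM in DMSO and 58.9, 71.0 and 65.9 CPM in DOX (-0.34 ± 0.10, with adjusted p = 0.110 by edgeR and 0.0601 by DESeq2). PARS2 stood at 17.8, 20.8 and 19.6 CPM in DMSO and 15.8, 15.3 and 16.2 CPM in DOX (-0.30 ± 0.10). FARS2 stood at 18.1, 19.2 and 19.7 CPM in DMSO and 14.6, 16.9 and 14.8 CPM in DOX (-0.30 ± 0.11). In all 3 the groups did not overlap, DMSO 11 was the lowest control, and the controls spread more widely than the gap between the groups. TARS2 was the remaining mitochondrial gene with separate groups, at -0.15 ± 0.09. IARS2, the most abundant of the class, stood at 238, 202 and 196 CPM in DMSO and 205, 211 and 210 CPM in DOX, and DMSO 11 was its highest library (-0.02 ± 0.10). YARS2, next after NARS2 by level per kilobase in DMSO, stood at 32.0, 24.0 and 23.6 CPM in DMSO and 32.3, 29.9 and 27.1 CPM in DOX (0.17 ± 0.14), with DMSO 11 again near the highest library. LARS2 (-0.04), EARS2 (-0.15) and WARS2 (-0.18) overlapped between groups as well. Exact two-sided permutation tests over the libraries gave p = 0.1, the smallest value for 3 against 3, to each of the 14 members with separate groups.

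Without DMSO 11, edgeR's quasi-likelihood test called 15 cytosolic genes lower and 2 higher, and 3 mitochondrial genes lower and 7 higher. That fit called 49.4% of all genes, 25.7% lower and 23.7% higher. The medians were then -0.38 and 0.15. The cytosolic genes higher in DOX were HARS (0.73 ± 0.08, adjusted p = 3.24e-07) and RARS (0.30 ± 0.07, adjusted p = 0.00245), and QARS, VARS and WARS were not called. MARS was at -0.80 ± 0.07, YARS at -0.79 ± 0.07 and SARS at -0.78 ± 0.07, with adjusted p-values of 2.55e-08, 1.54e-08 and 2.73e-08. With all 6 libraries their edgeR adjusted p-values were 0.145, 0.101 and 0.186. DMSO 11 was singled out as lying nearest the DOX libraries over these same members. Leaving it out therefore tends to widen the difference between groups, and the p-values of this fit are no independent test. The mitochondrial genes called lower were NARS2, PARS2 and FARS2, and those called higher were AARS2 (0.71 ± 0.07, adjusted p = 1.08e-07), CARS2, MARS2, HARS2, YARS2, RARS2 and VARS2. DESeq2 without DMSO 11 gave the same counts, in a fit that called 41.5% of genes, 21.4% lower and 20% higher. The 4 DESeq2 calls made with all libraries ended on leaving out DMSO 23, DMSO 35, DOX 12, DOX 24 or DOX 36: 0 members were called then, in fits that called 1.32%, 1.4%, 0.69%, 1.23% and 1.01% of genes. EdgeR called 0 genes at all in those 5 fits, where 2273 to 2629 genes had a p under 0.05 before adjustment. With no filter on low counts edgeR called 4 cytosolic genes lower, 1 mitochondrial gene lower and 1 higher (5.56% of all genes, 3.62% lower and 1.94% higher).

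**Figure D4:**
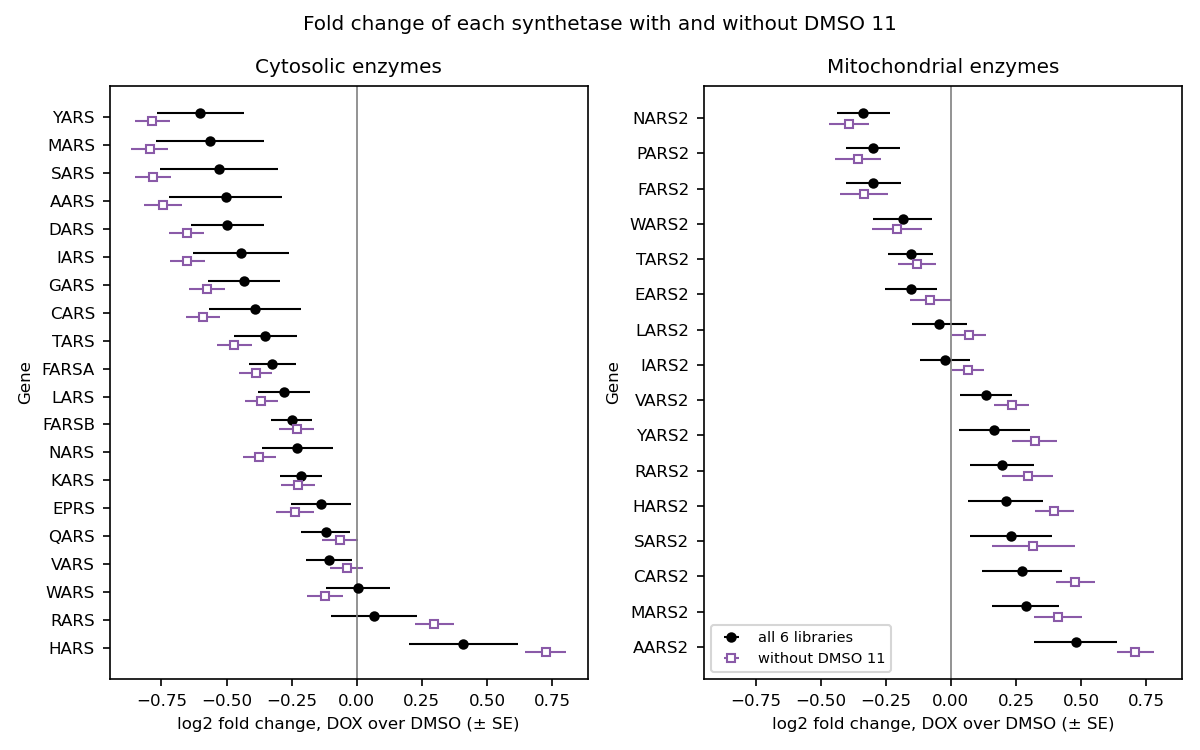
Log2 fold change of each member, DOX over DMSO, with its standard error, from all 6 libraries (black circles) and without DMSO 11 (open purple squares). YARS moves from -0.60 to -0.79 and HARS from 0.41 to 0.73 when DMSO 11 is left out, while FARSB stays near -0.25.

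Enzymes for the same amino acid were set side by side in 16 pairs of a cytosolic and a mitochondrial gene, with FARSA standing for the cytosolic phenylalanine enzyme and EPRS used for both glutamate and proline. The cytosolic fold change was the lower of the pair in 11 and the higher in 5, with a median difference of -0.22 on the log2 scale, and the signs were opposite in 7 pairs. For alanine, the log2 ratio of AARS to AARS2 counts was 2.71, 4.28 and 4.11 in DMSO 11, 23 and 35 and 2.63, 2.81 and 2.79 in DOX. For methionine, the ratio of MARS to MARS2 was 4.49, 5.82 and 5.53 in DMSO and 4.59, 4.44 and 4.39 in DOX. For tyrosine, YARS over YARS2 was 3.72, 4.79 and 4.78 in DMSO and 3.55, 3.71 and 3.78 in DOX. In these pairs DMSO 11 held the ratio of the DOX libraries. That did not hold in every pair. IARS over IARS2 was 1.165 in DMSO 11 and 1.418 to 1.464 in DOX, and RARS over RARS2 was 2.474 and 2.117 to 2.229. For histidine the ratio of HARS to HARS2 was 0.92, 0.53 and 0.72 in DMSO and 1.09, 0.93 and 0.83 in DOX. The ratio overlapped between groups in 15 of 16 pairs. Only VARS over VARS2 was lower in every DOX library, at 1.21 to 1.32 against 1.45 to 1.55 (exact two-sided permutation p = 0.1, the smallest possible, and 0.492 after Benjamini-Hochberg adjustment over the 16 pairs).

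**Figure D5:**
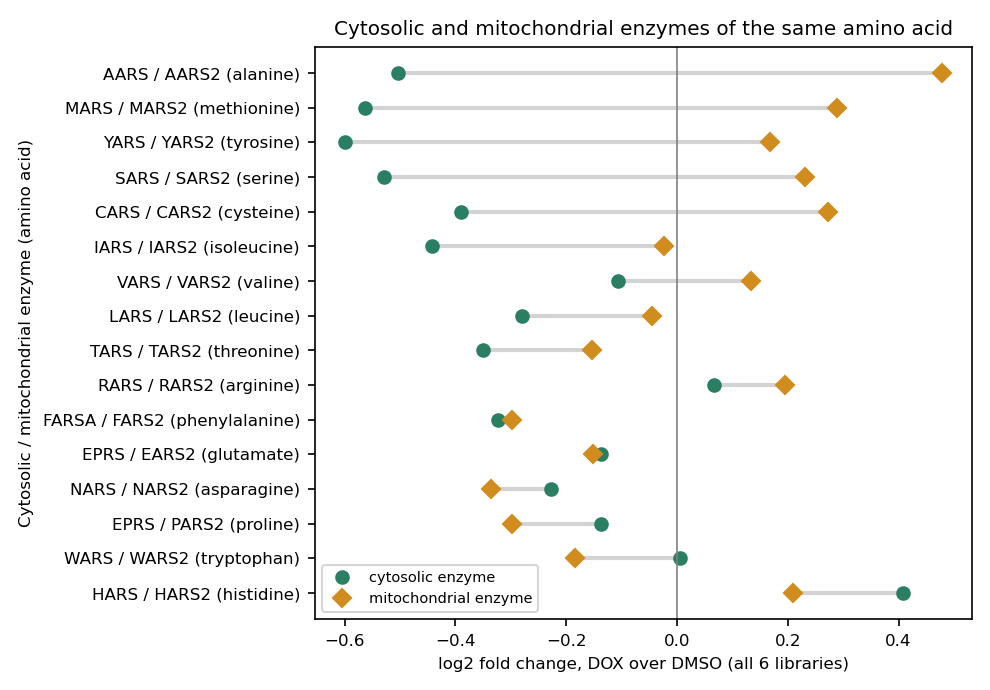
Log2 fold change, DOX over DMSO from all 6 libraries, of the cytosolic (green circles) and mitochondrial (orange diamonds) enzyme for each amino acid, joined by a grey line and ordered by the difference. The widest gap is between AARS at -0.50 and AARS2 at 0.48, and in 5 pairs, down to HARS and HARS2, the cytosolic gene is the higher one.

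Of the 20 cytosolic genes, 8 encode enzymes of the multisynthetase complex and 12 do not, and the difference between these sets was not tested. The median log2 fold change was -0.25 in the complex and -0.34 outside it. DESeq2 called 1 of 8 and 3 of 12 lower, beside 6.44% of the genes it tested. These calls ended on leaving out any library other than DMSO 11. The groups were separate in 3 of 8 and 5 of 12 genes, all lower in DOX, beside the 15.6% of all genes that were. The complex is held together by 3 non-enzymatic scaffold proteins, and of these AIMP2 was called lower by DESeq2: it stood at 40.7, 64.8 and 53.9 CPM in DMSO and 37.0, 36.4 and 36.001 CPM in DOX (-0.54 ± 0.15, adjusted p = 0.0258, against 0.102 by edgeR). AIMP1 stood at 87.2, 99.9 and 99.3 CPM in DMSO and 79.2, 80.9 and 83.0 CPM in DOX (-0.24 ± 0.08), also without overlap. EEF1E1, the third scaffold, was at -0.26 ± 0.15 with overlapping groups. Without DMSO 11 edgeR called all 3 lower, beside 25.7% of all genes. AIMP2 was then at -0.70, AIMP1 at -0.30 and EEF1E1 at -0.37, with adjusted p-values of 5.14e-07, 5.68e-04 and 0.00542.

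Promoters of the members were searched for the core of the C/EBP-ATF response element, the site that ATF4 binds with a C/EBP partner (TGATGNAA, or TTNCATCA on the other strand), and for the E-box of MYC family proteins (CACGTG, which reads the same on both strands). The windows run from 250 bases before to 50 bases after each gene start in RefSeq (GRCh38.p14), and 16 cytosolic and 14 mitochondrial members had one. The ATF4 core was found in 7 of the 16 cytosolic genes, AARS, CARS, GARS, IARS, MARS, NARS and TARS, and in 1 of the 14 mitochondrial genes, YARS2. It was present in 4.46% of all genes of the promoter table and in 2.8% of the tested genes matched to it. With the bases before the start alone, 3 cytosolic genes (AARS, GARS and IARS) and YARS2 held it, against 2.35% of tested genes. The E-box was found in IARS and in the mitochondrial CARS2, EARS2 and MARS2, against 12.5% of tested genes. The median log2 fold change was -0.43 over the 7 cytosolic genes with the ATF4 core, from -0.56 to -0.23. It was -0.14 over the 9 without it, from -0.53 to 0.41. The 4 not in the table (DARS, LARS, VARS and YARS) had a median of -0.39. For most genes with the core the lower value rests on DMSO 23 and DMSO 35. DMSO 11 lay under the mean of the DOX libraries in AARS, CARS, NARS, IARS and MARS. There DOX minus DMSO 11 was 0.14, 0.12, 0.11, 0.08 and 0.05 on the log2 scale. In GARS and TARS that difference was -0.10 and -0.08. The contrast between genes with and without the core was not tested. A match describes letters only, and binding was not measured here. The 4 matching promoters printed here are those whose genes had the smallest edgeR p-values, each as 120 bases before and 10 bases after the start, 5′ to 3′ on the strand of the gene, with the match in capitals.
GARS, chr7:30594758-30594887, plus strand: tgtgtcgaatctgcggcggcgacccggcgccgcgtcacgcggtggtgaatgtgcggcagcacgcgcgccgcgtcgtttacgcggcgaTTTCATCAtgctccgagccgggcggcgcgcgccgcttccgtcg
TARS, chr5:33440845-33440974, plus strand: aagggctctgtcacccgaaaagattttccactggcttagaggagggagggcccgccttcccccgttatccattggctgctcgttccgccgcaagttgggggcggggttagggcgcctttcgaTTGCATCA
MARS, chr12:57487948-57488077, plus strand: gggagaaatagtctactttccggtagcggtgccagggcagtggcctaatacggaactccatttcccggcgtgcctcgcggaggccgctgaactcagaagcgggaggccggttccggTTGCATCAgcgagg
IARS, chr9:92293688-92293817, minus strand: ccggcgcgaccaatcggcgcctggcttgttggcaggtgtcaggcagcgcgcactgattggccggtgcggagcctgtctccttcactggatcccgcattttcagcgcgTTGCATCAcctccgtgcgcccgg

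All 4 carry the match in the orientation TTNCATCA close to the start. Its first base lies 33 bases before the start in GARS, 13 in IARS and 4 in MARS, and in TARS it is base 3 counted from the start.

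The amino acid stress genes that act around charging had a median log2 fold change of -0.58 over 8 genes. Of these, edgeR called 0 (2 lower and 0 higher at an unadjusted p under 0.05) and DESeq2 called 1 lower. Across all genes tested, 14.8% were lower and 11.2% higher at that unadjusted p, and DESeq2 called 6.44% lower. The DESeq2 call was CHAC1, which degrades glutathione. CHAC1 stood at 25.0, 35.2 and 34.4 CPM in DMSO and 19.4, 20.9 and 22.2 CPM in DOX (-0.60 ± 0.14, DESeq2 adjusted p = 0.00804). DDIT3, the death-promoting factor CHOP, stood at 17.5, 68.8 and 54.6 CPM in DMSO and 21.5, 25.2 and 23.2 CPM in DOX (-1.01 ± 0.40, DESeq2 adjusted p = 0.221), with DMSO 11 below the DOX libraries as in MARS and AARS. TRIB3, SESN2 and DDIT4, stress-induced regulators of growth signalling, showed the same order of libraries except that DMSO 35 and DOX 36 were close in DDIT4, with log2 fold changes of -0.92 ± 0.51, -0.69 ± 0.30 and -0.55 ± 0.41 and no call by either tool. EIF2AK4, the kinase GCN2, was at -0.0044 ± 0.08. ATF4 itself stood at 577, 469 and 471 CPM in DMSO and 567, 585 and 571 CPM in DOX (0.18 ± 0.11). ASNS, asparagine synthetase and a classic ATF4 target, was low throughout at 10.0 to 12.9 CPM in DMSO and 13.2 to 13.8 CPM in DOX (0.28 ± 0.13). The median of the list without DMSO 11 was -0.83 and without DMSO 23 was -0.20. The edgeR fit without DMSO 11 called 25.7% of all genes lower and 23.7% higher. Without DMSO 11 edgeR called CHAC1 (-0.74), DDIT3 (-1.41), SESN2 (-1.01) and TRIB3 (-1.37) lower and ATF4 (0.29, adjusted p = 0.00160) and ASNS (0.40, adjusted p = 0.00241) higher, while DDIT4 (-0.91) and EIF2AK4 (0.04) were not called.

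Mitochondria have no enzyme of their own for glutamine and make its charged tRNA with an amidotransferase of subunits QRSL1, PET112 (GATB) and GATC. PET112 was called lower by DESeq2, at 22.9, 26.2 and 26.5 CPM in DMSO and 19.7, 19.5 and 18.0 CPM in DOX (-0.40 ± 0.10, adjusted p = 0.0210, against 0.0946 by edgeR). QRSL1 stood at 30.5, 41.5 and 41.2 CPM in DMSO and 30.5, 28.9 and 29.2 CPM in DOX (-0.36 ± 0.13), while GATC was at -0.0096 ± 0.09. The initiator formyltransferase MTFMT was at -0.09 ± 0.10, with overlapping groups. On leaving out DMSO 11, edgeR called PET112 (-0.47) and QRSL1 (-0.49) lower, and GATC (0.04) and MTFMT (-0.07) were not called. That fit called 25.7% of all genes lower and 23.7% higher.

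Among genes that edit or recycle charged tRNA, DTD2 was called lower by DESeq2 and was even within groups. It stood at 25.3, 26.8 and 26.6 CPM in DMSO and 19.5, 19.9 and 18.5 CPM in DOX (-0.44 ± 0.09, adjusted p = 0.00403, against 0.0851 by edgeR). AARSD1, which clears mischarged alanine tRNA, was higher in every DOX library, at 5.32 to 6.76 against 4.40 to 5.29 CPM (0.32 ± 0.15), and neither tool called it. SEPSECS, the last enzyme of selenocysteine tRNA charging, stood at 43.4, 70.8 and 83.5 CPM in DMSO and 40.3, 40.1 and 38.4 CPM in DOX (-0.74 ± 0.21, DESeq2 adjusted p = 0.0146), and SEPHS1, a selenophosphate synthetase homologue, was at 0.18 ± 0.12. Without DMSO 11 edgeR called DTD2 (-0.47) and SEPSECS (-0.96) lower and AARSD1 (0.39, adjusted p = 0.0259) and SEPHS1 (0.33, adjusted p = 3.35e-04) higher. That fit called 25.7% of all genes lower and 23.7% higher. The medians over all libraries were -0.0043 over 5 editing genes and -0.0093 over 4 selenocysteine genes.

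Of 8 genes of tRNA maturation and export, DESeq2 called ELAC1 lower, a nuclease that acts on the tRNA 3′ end, at 5.75, 10.2 and 9.67 CPM in DMSO and 5.06, 5.60 and 4.97 CPM in DOX (-0.71 ± 0.22, adjusted p = 0.0326). RPP30, a subunit of RNase P, which trims the tRNA 5′ end, was at -0.19 ± 0.08 without overlap between groups, and the list's median was 0.02. Of the factors that deliver charged tRNA to the ribosome, the exchange factor EEF1B2 stood at 452, 550.4 and 468 CPM in DMSO and 378, 433 and 392 CPM in DOX (-0.29 ± 0.11), and the mitochondrial factor TUFM at 332, 306 and 288 CPM in DMSO and 259, 269 and 262 CPM in DOX (-0.23 ± 0.09). Neither was called by either tool. EdgeR without DMSO 11 called ELAC1 (-0.93), RPP30 (-0.21), EEF1B2 (-0.34) and TUFM (-0.18) lower, beside 25.7% of all genes. The median over all libraries for the delivery factors was -0.15 over the 5 of 6 tested, EEF1G having at most 2 counts in a library. In each of these other lists edgeR called 0 genes, with 1 or 2 lower and 0 higher at an unadjusted p under 0.05. Across all genes tested, 14.8% were lower and 11.2% higher at that unadjusted p, and DESeq2 called 6.44% lower.

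The authors' deposited table of DESeq2 results, which also sets DOX against DMSO, has adjusted p-values under 0.05 for 4 members: YARS (0.0120), DARS (0.0236), FARSA (0.0274) and GARS (0.0379). At that threshold the authors' deposited table has 9.57% of its genes, 6.61% lower in DOX and 2.96% higher. In the authors' deposited table the nearest members outside that threshold were MARS (-0.57, adjusted p = 0.0526), NARS2 (-0.34, 0.0582) and TARS (-0.36, 0.0642), and AARS2 had 0.47 with an adjusted p of 0.0713.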

How the data were processed

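The authors deposited raw read counts per Ensembl gene for 6 libraries. Per the labels' protocols these were stranded and sequenced from both ends. Per the submitters' processing notes, STAR 2.5.2a, featureCounts, DESeq2 1.12.4 and build hg19 were used. Annotation release and strand setting are not given in the sources used here. The authors' deposited comparison table holds a mean normalised signal, log2 fold changes with standard errors, the Wald score and p-values, per the file headers. Count columns show the group but no label's replicate number; no per-library column was left out. All 92 spike-in rows were at 0 and were dropped.

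Counts were filtered with edgeR's filterByExpr, scaled by TMM, and compared between groups by the robust quasi-likelihood test of edgeR 4.0.16 in R 4.3.3, with p-values adjusted by Benjamini-Hochberg over 15949 genes. The printed SE is the log2 fold change divided by the square root of F. DESeq2 1.42.0 (on the same filtered genes) and limma 3.58.1 (voom) were alternatives. Log2 CPM used a prior count of 2. Exon lengths and overlaps came from GENCODE 29, of another build than the counts, so lengths may differ from those counted over. The tests were tried on simulated data.

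All members are named; values by library are given for those called, the 8 cytosolic and 5 mitochondrial genes with the smallest edgeR p, and the 3 most abundant per kilobase in each class by the mean of both groups; from each other list, those called and the 2 with the smallest p. KARS, SARS, CARS, HARS, RARS, WARS, SARS2, YARS2, GATC, MTFMT, EEF1E1, and the stress genes other than CHAC1 and DDIT3 were added after their values were seen, as was the split by multisynthetase complex. One gene of the lists is not reported here. Members and lists were chosen with earlier results of these data known.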

Additional observations from a re-analysis of the deposited data

How the results depend on the processing

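No paired analysis was possible because the count columns carry none of the replicate numbers in the labels. Fixed alternatives were DESeq2, voom, RLE, upper quartile and total count scaling, no filter, a filter of 1 CPM in 3 libraries, and each library left out in turn. Added after seeing the data were DESeq2 with each library left out and edgeR's newer quasi-dispersion. Of 468 values of single members under the fixed alternatives, 431 stayed uncalled, 37 became called and 0 reversed a call. Against 0 calls in each class and direction, DESeq2 called 4 cytosolic genes lower. With no filter edgeR called 4 cytosolic genes lower, 1 mitochondrial gene lower and 1 higher (DARS, GARS, TARS, YARS, NARS2 and AARS2), where it called 1761 of 31682 genes. The other scalings, voom, the 1 CPM filter and the newer dispersion called 0 members. Leaving out 1 library gave 0 to 15 cytosolic genes lower, 0 to 2 higher, 0 to 3 mitochondrial genes lower and 0 to 7 higher by edgeR and by DESeq2, and all calls came without DMSO 11. The cytosolic median ranged from -0.38 (without DMSO 11) to -0.26 (without DMSO 35), and the mitochondrial median from -0.0030 (without DMSO 35) to 0.15 (without DMSO 11). The median of the amino acid stress genes was -0.20 without DMSO 23 and -0.83 without DMSO 11. The cause was not tested. Signs of uncalled members changed for IARS2 (upper quartile scaling, without DMSO 11), LARS2 (without DMSO 11), WARS (no filter, without DMSO 11, without DOX 36) and RARS (without DMSO 23, without DMSO 35). SARS2 had the fewest counts of the members, 79 to 106 a library.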

Other observations

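Some further genes of tRNA maturation, chosen here after their values were seen, also set DMSO 11 apart from the other controls. TRNT1, RPP30 and LAGE3 of the same list did not, at 48.5, 82.6 and 35.5 CPM in DMSO 11. They stood at 49.4, 85.2 and 31.7 CPM in DMSO 23 and at 52.9, 88.9 and 27.1 CPM in DMSO 35. XPOT, the exportin that carries tRNA out of the nucleus, stood at 509, 937 and 941 CPM in DMSO 11, 23 and 35 and at 590.1, 606 and 602 CPM in DOX 12, 24 and 36, the order of AARS and IARS. POP1, a subunit of RNase P, stood at 31.9, 12.6 and 15.4 CPM in DMSO and 29.2, 32.7 and 32.9 CPM in DOX. SSB, the La protein that binds new tRNA ends, stood at 152, 86.2 and 91.2 CPM in DMSO and 116, 129 and 121 CPM in DOX. ELAC2, the nuclease that trims the tRNA 3′ end, stood at 162, 92.3 and 95.7 CPM in DMSO and 129, 125 and 141 CPM in DOX. In POP1, SSB and ELAC2 DMSO 23 and DMSO 35 were the lowest libraries, the reverse of XPOT. DMSO 11 was above every DOX library in SSB and ELAC2. Their log2 fold changes were -0.41 ± 0.21 for XPOT, 0.66 ± 0.30 for POP1, 0.15 ± 0.20 for SSB and 0.18 ± 0.20 for ELAC2, and neither edgeR nor DESeq2 called any of them. Without DMSO 11 edgeR called all 4, XPOT at -0.65 (adjusted p = 2.54e-07), POP1 at 1.17 (1.12e-08), SSB at 0.46 (1.25e-05) and ELAC2 at 0.49 (7.85e-06). In that fit 49.4% of all genes were called, 25.7% lower and 23.7% higher.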
